A study of Mus musculus with 10 samples.

Results

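Rax, Six3, Six6, Vax1, Vax2, Otp and Sim1 are transcription factor genes of the eye field and the hypothalamus, and their RNA was followed in mouse telencephalon carrying mutant alleles of Polr1a, which encodes the largest RNA polymerase I subunit. The genes were taken by symbol, and all 7 of 7 had a row among the 14796 named genes of the deposited table. Total RNA was sequenced from the telencephalon at embryonic day 12, without a mutant allele in 5 wild types, with a null allele in 2 samples and with the missense allele p.C1559F in 3 samples. The sources used here do not give the zygosity, the strain, the litter or whether a sample pools embryos. Wild types 1 and 2 and both null samples have titles that start with Polr_2048, wild types 3, 4 and 5 and the missense samples have titles that start with Polr_2138, and mutants were set against wild types of the same title number. Values are log2 levels that were read as on a scale of CPM, that is counts scaled to a common library total. The normalization is not given in the sources used here, nor whether it corrects for gene length. Levels are therefore compared between samples of 1 gene only. The labels do not say that the samples are separate litters, so p-values speak only of the spread among these samples, which may be technical. The depth of the samples is unknown, since the values of every sample add up to nearly the same total.

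The eye field is the part of the anterior neural plate from which the optic vesicles grow, and the hypothalamus forms from the neighbouring ventral forebrain. Rax is needed for optic vesicles to form, and Six3 keeps Wnt signals out of the anterior neural plate and supports Shh expression in the ventral midline. Six6, the close paralogue of Six3, acts in retina, hypothalamus and pituitary. Vax1 and Vax2 are homeobox paralogues downstream of Shh, Vax1 in the optic stalk, preoptic area and ventral forebrain, and Vax2 in the ventral retina. Otp and Sim1 act together in the neurosecretory neurons of the hypothalamus.

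The tissue label was checked first. The defining telencephalon genes Emx1, Emx2, Lhx2, Tbr1, Eomes, Neurog2 and Pax6 were measured in all 10 samples, with a lowest log2 level of 5.45 (Emx1). Some hypothalamic genes were present as well. Fezf1 lay between 5.01 and 5.69, and Otp, itself under study here, between 4.79 and 5.81. The other hypothalamic markers were lower, with Nkx2-4 at -0.27 to 4.02, Bsx at 0.25 to 2.92 and Hmx2 at 0.09 to 2.38. Hmx3 ran from -0.75 to 2.09 and Nr5a1 from -2.23 to 2.33. Pomc was at the floor of the table, -3.16, in 3 samples. Missense 3 stood apart in some genes of eye tissue, but not in all. The lens crystallin gene Cryba1 had a log2 level of 5.99 there and at most 0.23 in the other samples. The pigment cell gene Pmel was at 3.77 against at most 0.61, and the retinal gene Atoh7 was at 3.33 against at most 0.62. The pigment cell gene Dct, at 2.98 in missense 3, was higher in null 1, at 3.26. The lens gene Prox1, at 5.57 in missense 3, lay within the other samples, which ran from 5.38 to 6.05. Results of the missense comparison are therefore given with and without missense 3. Polr1a itself showed a log2 change of -0.48 (SE 0.20, adjusted p = 0.563 in limma) in the null samples and -0.08 (SE 0.16, adjusted p = 0.964 in limma) in the missense samples.

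**Figure D1:**
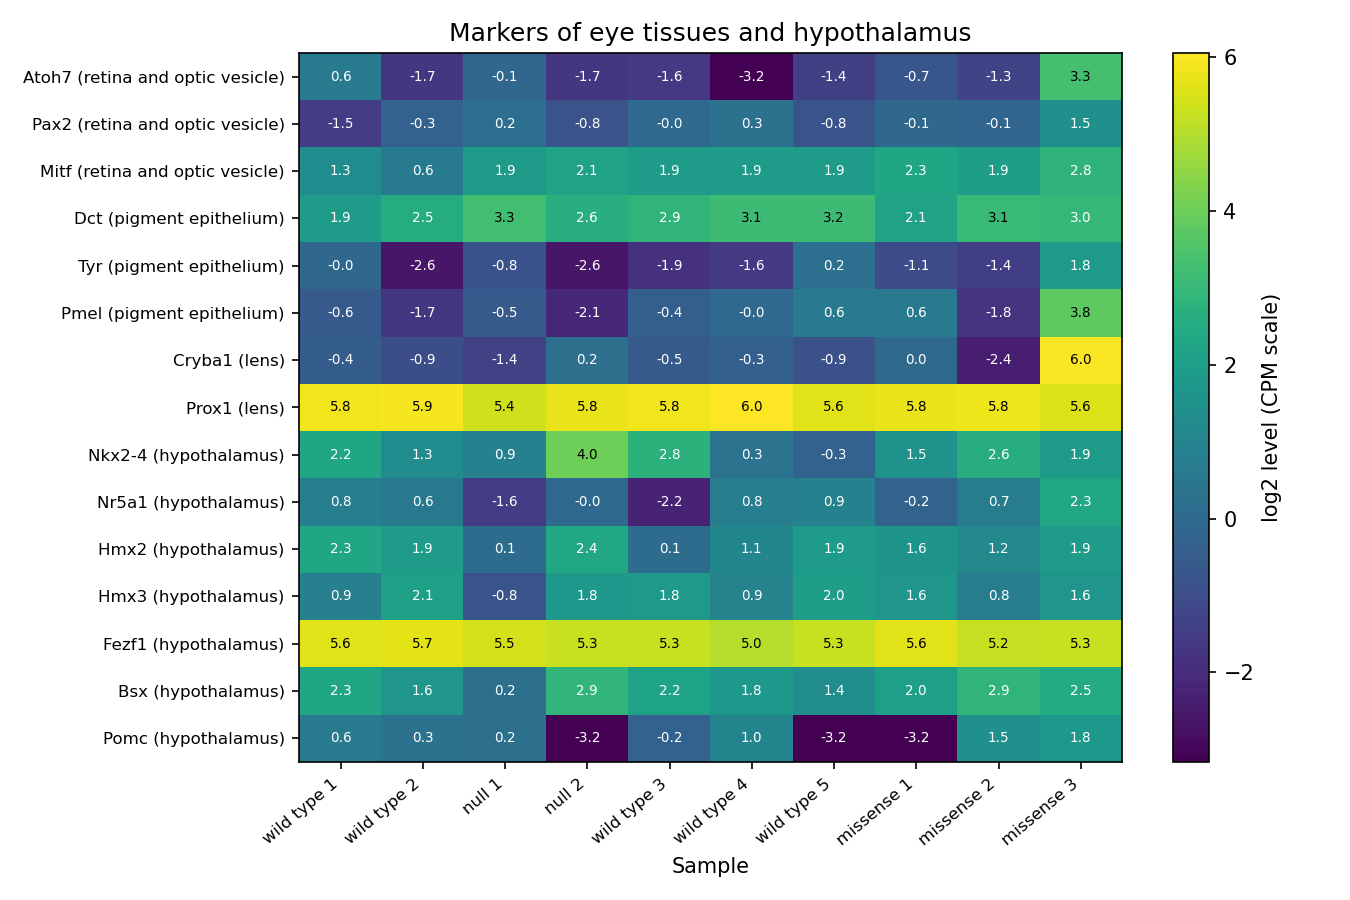
Log2 level on the CPM scale (colour and printed value) of marker genes of retina, pigment epithelium, lens and hypothalamus (vertical axis) in the 10 samples (horizontal axis). Missense 3 has the highest Atoh7, Pax2, Mitf, Tyr, Pmel and Cryba1 of the 10 samples, but not the highest Dct or Prox1. Null 2 has the highest Nkx2-4, at 4.02.

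Vax1 showed the largest difference of the 7 genes in the null comparison. Its log2 level was 4.66 in wild type 1, 5.02 in wild type 2, 2.60 in null 1 and 2.36 in null 2. Both null samples lay below all 5 wild types, since wild types 3, 4 and 5 had 3.82, 3.69 and 4.12. The log2 change was -2.36 (SE 0.42, 95% interval -3.28 to -1.43, n = 2 against 2), or 0.195 times the level of the wild types of the same title number. Over all genes the limma adjusted p was 0.0700, which misses 0.05, the exact 2-sided permutation p was 0.333, the smallest that 2 against 2 allow, and Vax1 was number 35 of 14796 in the order of p. In whole tissue, fewer cells that express a gene and less RNA per cell cannot be told apart. On the linear CPM scale the mean was 28.8 ± 5.03 (SD, n = 2) in these wild types and 5.60 ± 0.654 (SD, n = 2) in the null samples. Leaving out 1 sample at a time gave log2 changes of -2.54 to -2.18 and limma adjusted p of 0.0105 to 0.363. The lowest of these was reached without missense 3, which is not in the contrast but enters the estimate of the spread through its high Vax1 level of 4.76.

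In the missense samples Vax1 was at 3.40 in missense 1, 3.25 in missense 2 and 4.76 in missense 3. Missense 1 and 2 lay below wild types 3, 4 and 5 and missense 3 above them, so the groups overlapped. The log2 change was -0.08 (SE 0.34, 95% interval -0.83 to 0.68, n = 3 against 3, adjusted p = 0.982 in limma). Without missense 3, the sample high in some eye markers, it was -0.56 (SE 0.21, unadjusted p = 0.0257, adjusted p = 0.998 in limma), and both remaining missense samples lay below all 3 wild types of their title number.

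Vax2 was close to the low end of the table. Its log2 levels were 0.08 and 0.70 in wild types 1 and 2 and -0.15 and -0.21 in null 1 and null 2. Both null samples lay below both wild types of their title number, but not below wild type 5, at -0.39. Vax2 showed a log2 change of -0.57 (SE 0.58, 95% interval -1.84 to 0.70, adjusted p = 0.855 in limma). Wild types 3, 4 and 5 had -0.08, 0.11 and -0.39 and missense 1, 2 and 3 had -0.17, -0.03 and 0.24, with a log2 change of 0.13 (SE 0.47, adjusted p = 0.980 in limma). These groups overlapped, and the interval of the missense difference, -0.91 to 1.17, leaves room for a change in either direction. Without missense 3 the Vax2 change was 0.016.

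Six3 was the other gene with a small unadjusted p in the null comparison. Its log2 level was 6.05 in wild type 1, 5.93 in wild type 2, 5.40 in null 1 and 4.87 in null 2. The null samples lay below both wild types of their title number, and null 2 was the lowest of all 10 samples, while null 1 lay above wild type 4. The log2 change was -0.86 (SE 0.20, 95% interval -1.29 to -0.42), or 0.553 times the wild-type level, with an unadjusted p of 0.00122 and a limma adjusted p of 0.167. It ranged from -1.12 to -0.59 when 1 sample at a time was left out, with limma adjusted p of 0.114 to 0.656.

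In the missense set Six3 was at 5.45, 5.32 and 5.77 in wild types 3, 4 and 5 and at 5.61, 5.88 and 5.85 in missense 1, 2 and 3. Missense 1 lay below wild type 5, and missense 2 and 3 lay above all 3 wild types. Six3 had a log2 change there of 0.26 (SE 0.16, 95% interval -0.09 to 0.62, adjusted p = 0.902 in limma) and 0.23 without missense 3. An antisense gene, Six3os1, overlaps Six3 in the reference annotation, and the sources used here do not say whether reads were counted by strand, so reads of the pair cannot be told apart. Raxos1 overlaps Rax and Vax2os overlaps Vax2 in the same way, and these antisense genes were not analysed here.

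Six6, the paralogue of Six3, was low and variable. The log2 levels were 1.36 and -0.04 in wild types 1 and 2 and 0.88 and 0.01 in null 1 and null 2, and these groups overlapped. The log2 change in null was -0.21 (SE 0.71, 95% interval -1.77 to 1.34, adjusted p = 0.971 in limma). In missense 1, 2 and 3 Six6 was at 1.63, 1.70 and 3.40, above wild types 3, 4 and 5, at 1.23, 0.56 and 1.54. This gave a log2 change of 1.14 (SE 0.58, 95% interval -0.13 to 2.41, adjusted p = 0.902 in limma), with an exact 2-sided permutation p of 0.1, the smallest that 3 against 3 allow. Without missense 3 the change was 0.56 (SE 0.54, adjusted p = 0.998 in limma), and missense 1 and 2 still lay above all 3 wild types. The part of eye tissue in the Six6 and Rax differences was not tested, and missense 3 had the highest Six6, Atoh7 and Cryba1 of the 10 samples. On the opposite strand the gene 4930447C04Rik overlaps Six6, and it showed a log2 change of 1.15 (SE 0.45, adjusted p = 0.501 in limma) in null and -0.66 (SE 0.36, adjusted p = 0.902 in limma) in missense.

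The promoters of Vax1 and Six3, the genes of smallest p in the null comparison, are shown with that of Six6, the paralogue of Six3. The sequences are from RefSeq on GRCm38.p6, which is not the build named in the submitters' processing notes, GRCm39, and cover the 250 bases before the annotated start. They lie at chr19:59170398-59170647 (minus strand), chr17:85620584-85620833 (plus strand) and chr12:72939632-72939881 (plus strand). Capitals mark the CCAAT box, CCAAT on either strand and so also ATTGG.
Vax1: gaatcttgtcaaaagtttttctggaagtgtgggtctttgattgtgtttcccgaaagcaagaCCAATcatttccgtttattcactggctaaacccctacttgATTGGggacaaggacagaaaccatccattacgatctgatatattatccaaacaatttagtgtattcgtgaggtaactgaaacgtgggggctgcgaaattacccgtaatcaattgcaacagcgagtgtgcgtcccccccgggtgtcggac
Six3: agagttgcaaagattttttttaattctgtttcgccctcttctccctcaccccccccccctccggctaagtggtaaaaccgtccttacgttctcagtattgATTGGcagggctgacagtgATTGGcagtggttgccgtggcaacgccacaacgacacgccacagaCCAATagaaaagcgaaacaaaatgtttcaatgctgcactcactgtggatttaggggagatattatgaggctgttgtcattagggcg
Six6: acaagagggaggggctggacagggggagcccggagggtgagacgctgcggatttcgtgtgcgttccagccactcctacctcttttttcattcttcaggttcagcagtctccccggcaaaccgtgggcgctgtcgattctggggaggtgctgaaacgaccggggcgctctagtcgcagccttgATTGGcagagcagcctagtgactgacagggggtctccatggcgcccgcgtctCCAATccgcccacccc
Vax1 has 2 CCAAT boxes in this window, Six3 has 3 and Six6 has 2, while Otp has 1 and Sim1 has 0. Of 32851 promoter windows of the same length, 33.8% hold at least 1, 10.1% hold 2 or more and 2.79% hold 3 or more. The homeodomain core ATTA, which occurs on either strand in 54.9% of windows, was found 4 times in Vax1, 3 times in Six3 and 0 times in Six6. Sim1 had 3 and Otp had 2. Of all windows, 9.62% hold 4 or more, 17.3% hold 3 or more and 30.8% hold 2 or more. The longest run shared by the Six3 and Six6 windows is TTGATTGGCAG, 11 bases that contain a CCAAT box, start 153 bases before the Six3 start and 71 before the Six6 start, and occur in 11 of the 32851 windows. The same search also gave an 11-base run for Six6 and Otp, found in 16 windows. These matches describe the letters of the windows and are not sites found by binding data.

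Rax was low, and its null samples lay apart. The log2 level was 2.03 in wild type 1 and 1.27 in wild type 2, against 0.18 in null 1 and 1.50 in null 2. Null 1 was the lowest of the 10 samples, and null 2 lay between the wild types. For Rax this was a log2 change of -0.81 (SE 0.61, 95% interval -2.15 to 0.52, adjusted p = 0.792 in limma). Wild types 3, 4 and 5 had 0.42, 0.25 and 0.86, and missense 1, 2 and 3 had 1.25, 1.08 and 2.39, all above the 3 wild types. In missense the change was 1.06 (SE 0.50, 95% interval -0.03 to 2.16, unadjusted p = 0.0554, adjusted p = 0.902 in limma), or 2.09 times the wild-type level, with the smallest possible exact 2-sided permutation p of 0.1. Missense 3 had the highest Rax of all samples, and without it the change was 0.66 (SE 0.50, adjusted p = 0.998 in limma). Rax in missense 1 and 2 lay above the wild types of their own title number and below wild types 1 and 2.

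Otp and Sim1, the pair of the neurosecretory hypothalamus, differed between the 2 null samples more than between the groups. Otp had log2 levels of 5.71 and 5.55 in wild types 1 and 2, 4.79 in null 1 and 5.77 in null 2. Sim1 had 3.87 and 4.04 in these wild types, 3.76 in null 1 and 4.74 in null 2. Null 1 was thus the lowest of the 10 samples for both genes, as for Rax, and null 2 was the highest of the 10 for Sim1. The log2 change was -0.35 for Otp (SE 0.28, 95% interval -0.96 to 0.26, adjusted p = 0.807 in limma). For Sim1 it was 0.29 (SE 0.29, 95% interval -0.34 to 0.93, adjusted p = 0.851 in limma). The sign depended on the sample, since Otp had 0.14 without null 1 and -0.84 without null 2, and Sim1 had 0.79 without null 1 and -0.20 without null 2. The other hypothalamic markers went both ways between null 1 and null 2. Nkx2-4 was at 0.87 and 4.02, Hmx2 at 0.10 and 2.38, Hmx3 at -0.75 and 1.75, Bsx at 0.25 and 2.92 and Nr5a1 at -1.55 and -0.03, while Fezf1 was at 5.45 and 5.29 and Pomc at 0.25 and the floor of -3.16. Vax1 and Six3 were lower than in their wild types in both null samples.

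In the missense set Otp was at 5.31, 5.21 and 5.69 in wild types 3, 4 and 5 and at 5.54, 5.47 and 5.81 in missense 1, 2 and 3. The groups overlapped, and the log2 change was 0.20 (SE 0.22, 95% interval -0.30 to 0.70, adjusted p = 0.945 in limma). Without missense 3 the Otp change was 0.10. Sim1 was at 4.09, 3.86 and 4.11 in these wild types and at 3.96, 4.17 and 4.37 in missense 1, 2 and 3. Its log2 change was 0.15 (SE 0.23, 95% interval -0.37 to 0.66, adjusted p = 0.960 in limma), or 0.041 without missense 3, and the groups overlapped. Sim1 had the smallest spread over the 5 wild types of the 7 genes (SD 0.12, n = 5), against 0.72 for Rax.

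**Figure D2:**
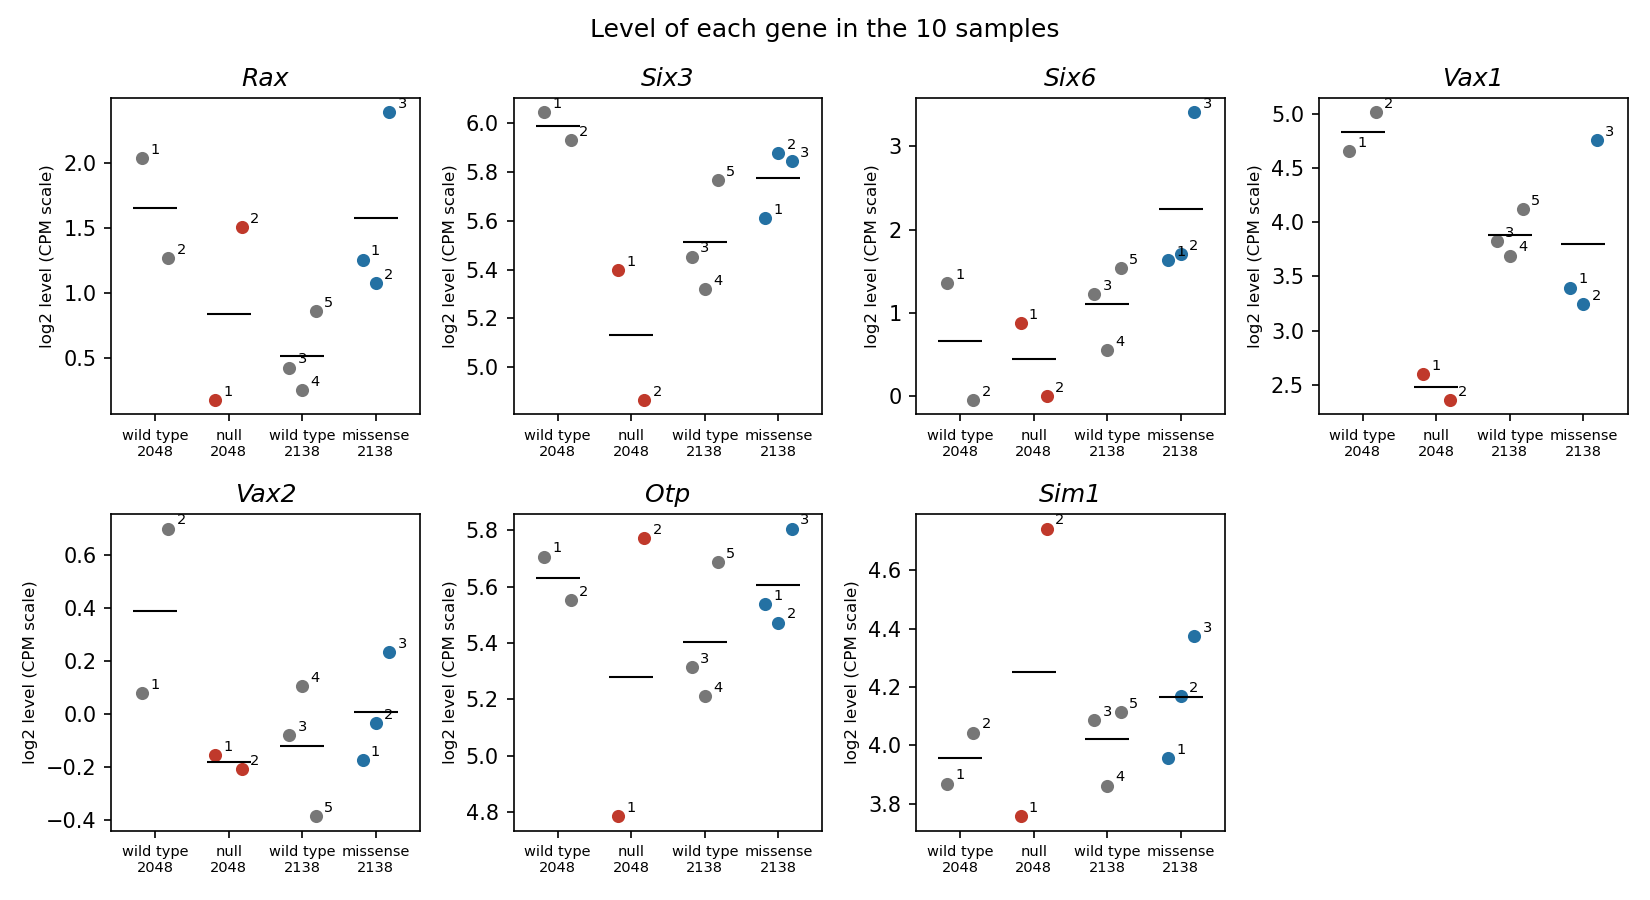
Log2 level on the CPM scale (vertical axes, which differ between panels and do not start at 0) of the 7 genes in each sample by group, with the replicate number beside each point and a line at each group mean. Both null samples have Vax1 levels of 2.60 or less, and all wild types 3.69 or more.

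Read over the 7 genes, 0 passed an adjusted p of 0.05 in limma in the null comparison, where 0.162% of all genes passed, in either direction. At an unadjusted p under 0.05, 2 of the 7 were lower, Vax1 and Six3, and 0 were higher, against 3.28% of all genes lower and 5.04% higher. Vax1, Six3 and Vax2 had both null samples below both wild types, as had 14.8% of all genes, and 0 of the 7 had both above, as had 22.9% of all genes. The median log2 change was -0.57 over the 7 genes and 0.03 over all genes. In the missense comparison 0 of 7 passed in limma, against 0.0203% of all genes, and 0 had an unadjusted p under 0.05, against 5.54%. Rax and Six6 had all missense samples above all wild types, as had 6.02% of all genes, and 0 had all below (4.89%). The median log2 change was 0.20 against 0.02 over all genes. Without missense 3, Rax and Six6 still lay above (10.2% of all genes) and Vax1 lay below (9.26%). Without null 1, Six3, Vax1 and Vax2 lay below both wild types (28% of all genes) and Otp and Sim1 above (36%). Without null 2 all but Six6 lay below (28.6%) and 0 above (38.3%).

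**Figure D3:**
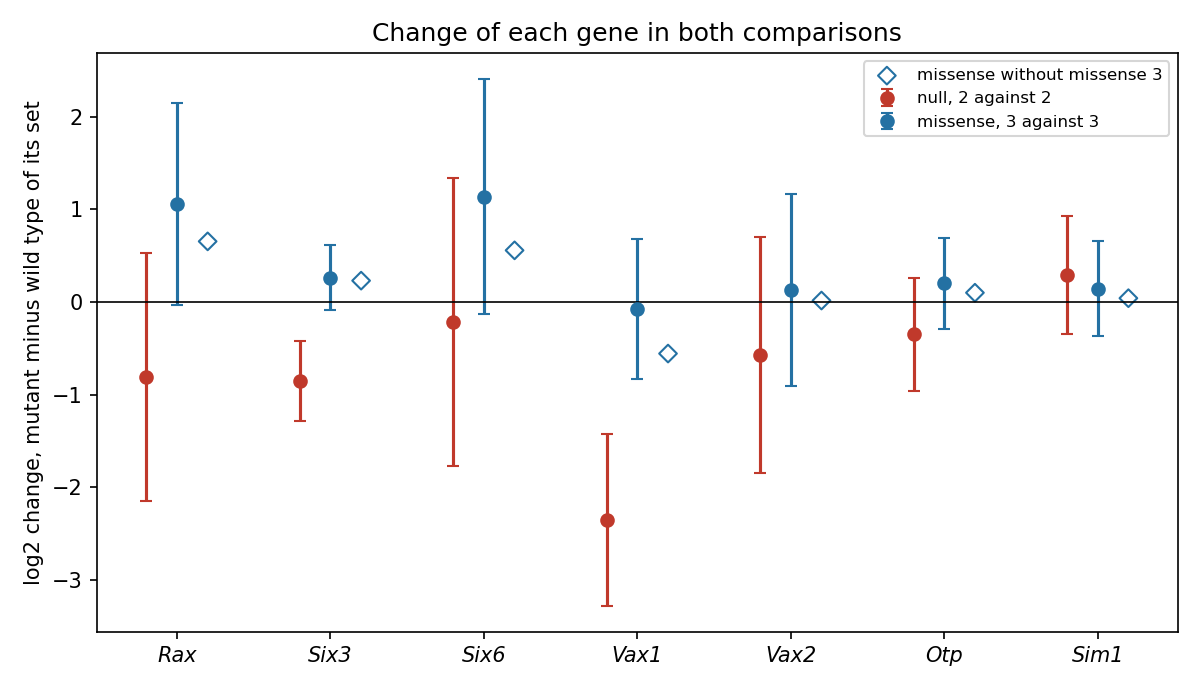
Log2 change, mutant minus wild type of the same title number (vertical axis), of the 7 genes (horizontal axis) in null (red circles), in missense (blue circles) and in missense without missense 3 (open diamonds). Bars are 95% intervals from limma, and the intervals of Vax1 and Six3 in null lie below 0.

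The alleles were then compared through the difference of their effects, missense minus null. It was positive for 6 of the 7 genes and 48.5% of all genes, and 0 passed in limma, against 0.0135% of all genes. Six3 had a difference of 1.12 (SE 0.25, 95% interval 0.56 to 1.68, unadjusted p = 0.00110, adjusted p = 0.582 in limma). Vax1 had a difference of 2.28 (SE 0.54, 95% interval 1.08 to 3.47, unadjusted p = 0.00152, adjusted p = 0.724 in limma), or 1.80 without missense 3 (adjusted p = 0.431 in limma). Rax had 1.88 (SE 0.78, unadjusted p = 0.0358), or 1.47 without missense 3 (unadjusted p = 0.0790). These 3 genes had an unadjusted p under 0.05 in the higher direction, against 1.91% of all genes. The alleles were studied under different title numbers, so a difference between alleles and one between title numbers cannot be told apart.

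The wild types of the 2 title numbers were compared with each other as a background. Wild types 3, 4 and 5 lay below wild types 1 and 2 for Rax, Six3 and Vax1, as for 9.76% of all genes. The log2 difference was -1.14 for Rax (SE 0.55, unadjusted p = 0.0640), -0.96 for Vax1 (SE 0.38, unadjusted p = 0.0300) and -0.47 for Six3 (SE 0.18, unadjusted p = 0.0234). The limma adjusted p were 0.700, 0.619 and 0.573, and 0 of the 7 genes passed, against 0.0946% of all genes, while Vax1 and Six3 were lower at an unadjusted p under 0.05, against 2.43%. In the order of group means, Vax1 ran from 4.84 ± 0.25 in wild types 1 and 2 through 3.88 ± 0.22 in wild types 3, 4 and 5 and 3.80 ± 0.83 in missense to 2.48 ± 0.17 (SD) in null. The means of wild types 3, 4 and 5 and of missense differed by less than their spread. Six3 ran from 5.99 ± 0.08 in wild types 1 and 2 through 5.78 ± 0.15 in missense and 5.51 ± 0.23 in wild types 3, 4 and 5 to 5.13 ± 0.38 (SD) in null, with missense and the wild types of its title number overlapping. For Otp and Sim1 the group means spanned 5.28 to 5.63 and 3.96 to 4.25, within the spread of the null samples (SD 0.70 for each).

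**Figure D4:**
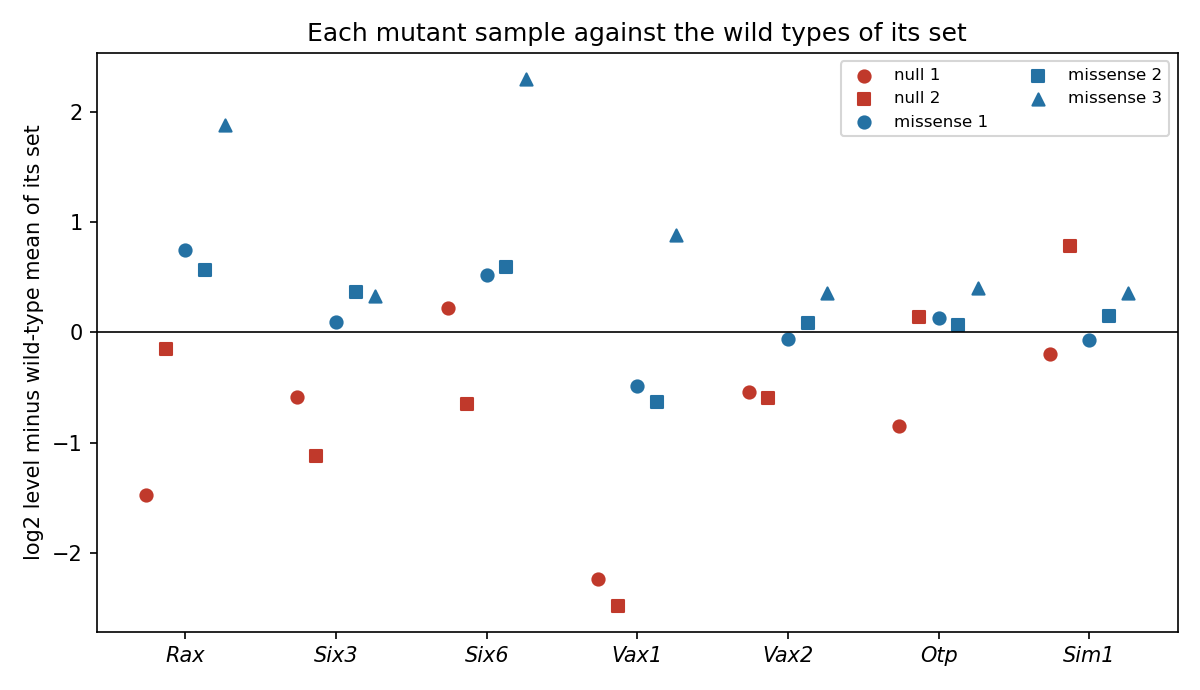
Log2 level of each mutant sample minus the mean of the wild types of its title number (vertical axis) for the 7 genes (horizontal axis), with null samples in red and missense samples in blue. For Vax1 the null samples are more than 2 below 0, and missense 3 lies above 0 while missense 1 and 2 lie below.

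Genes that act beside these factors were followed in the null comparison. The list of the optic stalk, preoptic area and ventral telencephalon, where Vax1 is expressed, had 18 measured genes with a median log2 difference of -1.04. Of these, 14 were lower and 4 higher. The higher ones, named after their values were seen, were Gbx2 (0.82), Pax2 (0.58), Fgf8 (0.34) and Zic1 (0.29, unadjusted p = 0.0182 in limma). Shh was at -0.12. In limma 7 of the 18 fell and 0 rose, against 0.162% of all genes called in either direction. Dlx1 and Dlx2, homeobox genes of GABAergic progenitors, fell by 1.38 (SE 0.10, adjusted p = 0.000369) and 1.68 (SE 0.20, adjusted p = 0.0128) on the log2 scale. Lhx6, a gene of migrating interneurons, fell by 2.50 (adjusted p = 0.0128), Dlx5 by 1.16 (adjusted p = 0.0277) and Nkx2-1, the gene of the medial ganglionic eminence and the ventral hypothalamus, by 1.91 (adjusted p = 0.0443). Gbx1, which fell by 2.48 (adjusted p = 0.0394 in limma), and Lhx8, which fell by 3.58 (adjusted p = 0.0464 in limma), complete the 7 and were named after their values were seen. Leaving out 1 sample at a time, Dlx1 passed in 10 of 10 fits, Dlx2 and Lhx6 in 8, Dlx5 in 5, and Nkx2-1, Gbx1 and Lhx8 in 1 each. Dlx2 and Lhx6 missed the threshold without null 2, where the adjusted p in limma was 0.126 for each, and without wild type 2. Dlx5 missed it without null 1, null 2 or wild type 2, 3 or 5. Nkx2-1 passed only without null 2, Lhx8 only without null 1 and Gbx1 only without wild type 4. All 7 missed the threshold when the null samples and wild types 1 and 2 were fitted alone.

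Markers of other tissues also differed between the null samples and wild types 1 and 2. The summed level of 10 microglia genes on the CPM scale was 132 and 130 in null 1 and null 2 and 67.4 and 61.6 in wild types 1 and 2. The summed level of 14 mesenchyme genes was 2820 and 3777 against 2269 and 1923, and that of 20 prethalamus, thalamus and midbrain genes 861 and 973 against 620 and 566. For 2 measured pituitary genes of 10 listed the sums were 17.6 and 45.1 against 5.75 and 2.04. Surface and olfactory epithelium (10 genes) had sums of 79.8 and 85.3 against 43.2 and 51.2, and endothelium (8 genes) 246 and 323 against 220 and 213. The 13 telencephalon genes summed to 1847 and 1628 in the null samples against 1877 and 2108. Wild types 3, 4 and 5 reached 3324 for mesenchyme, 27.7 for pituitary, 88.3 for surface epithelium and 263 for endothelium, at or above a null sample. Their highest sums for microglia, 93.5, and for prethalamus, thalamus and midbrain, 851, lay below both null samples. In the microglia, mesenchyme, pituitary, surface epithelium, endothelium and telencephalon lists 0 genes passed in limma. At an unadjusted p under 0.05, 7 of 10 microglia, 8 of 14 mesenchyme and 5 of 10 surface epithelium genes were higher. So were 2 of 8 endothelium and 2 of 2 pituitary genes, and 0 genes of these lists were lower. Of the 13 telencephalon genes 1 was higher and 4 were lower. Over all genes 5.04% were higher and 3.28% lower. The part of these tissues in the Vax1 and Six3 differences was not tested. The summed levels of lens genes, 99.8 and 114 against 104 and 99.7, overlapped between the groups.

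Of the other hypothalamus regulators, 27 of 28 were measured. In limma 2 fell in the null samples and 0 rose, against 0.162% of all genes in either direction. Nkx2-1, described above, was among them, with limma adjusted p of 0.0233 to 0.174 when 1 sample at a time was left out. The LIM homeobox gene Isl1 showed a log2 change of -0.88 (adjusted p = 0.164 in limma) and Pou3f1 one of -0.79 (adjusted p = 0.178 in limma). The median change of the list was 0.40, of opposite sign to the genes that fell. At an unadjusted p under 0.05 there were 9 higher and 6 lower, against 5.04% and 3.28% of all genes.

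Of the other eye field and optic vesicle regulators, 23 of 26 were measured and 0 passed in limma. An unadjusted p under 0.05 was reached by 4 in the higher and 2 in the lower direction, and the median of the list was 0.13. Over all genes these shares were 5.04% and 3.28%, which hold for the lists below as well. Bmp7, a signal of the optic vesicle and surface ectoderm, had 0.65 (adjusted p = 0.325 in limma) and Efnb1 -0.35 (adjusted p = 0.216 in limma). Among 13 genes of the ventral midline and the Hedgehog pathway 0 passed in limma, 0 had an unadjusted p under 0.05, and Shh showed a log2 change of -0.12 (SE 0.42, adjusted p = 0.972 in limma). The other Six and Eya genes, 10 of 10 measured, had 0 calls in limma and 1 at an unadjusted p under 0.05, Six4, with 0.69 (adjusted p = 0.412 in limma), and their median was 0.40. Hypothalamic neuropeptides were measured for 8 of 16, with 0 calls in limma, 2 lower at an unadjusted p under 0.05 and a median of -0.59. The 22 anterior signals and Wnt antagonists had 0 calls in limma and a median of 0.15, and an unadjusted p under 0.05 was reached by 3 in the higher direction and 1 in the lower. The prethalamus, thalamus and midbrain genes, 20 of 21 measured, had a median log2 difference of 1.09. At an unadjusted p under 0.05, 9 were higher and 1 was lower. After adjustment 0 rose and 1 fell in limma. The homeobox gene Irx2 was the nearest to the threshold among the higher ones, with 1.50 (SE 0.27, adjusted p = 0.0757 in limma).

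In the missense comparison 0 genes of any of these lists passed in limma. The list values include missense 3. Its summed levels of lens and of surface and olfactory epithelium genes were 235 and 180, against at most 114 and 88.3 in the other samples. The ventral list had 3 genes lower at an unadjusted p under 0.05, among them Dlx1, with -0.32 (SE 0.08), and Dlx2, with -0.52 (SE 0.16), both with a limma adjusted p of 0.884. Microglia sums were 121, 106 and 127 in missense 1, 2 and 3 and 92.2, 76.5 and 93.5 in wild types 3, 4 and 5, without overlap, and 5 of 10 microglia genes were higher at an unadjusted p under 0.05. Of the 13 telencephalon genes 4 were lower at an unadjusted p under 0.05. Over all genes 5.54% reached this threshold in either direction in the missense comparison. The part of these tissues in the missense values of the 7 genes was not tested. The median of the ventral list was -0.17, that of the eye field list 0.33 and that of the hypothalamus list -0.01. The difference between the alleles passed for Dlx1, at 1.06 (SE 0.13, adjusted p = 0.0322 in limma), and for no other gene of the ventral list. That list had 9 genes higher at an unadjusted p under 0.05, against 1.91% of all genes. This call for Dlx1 was kept in 2 of 10 fits with 1 sample left out, those without wild type 1 or wild type 4, and its adjusted p in limma ran from 0.0191 to 0.184. It was lost also after median centring of the samples and without the variance trend.

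**Figure D5:**
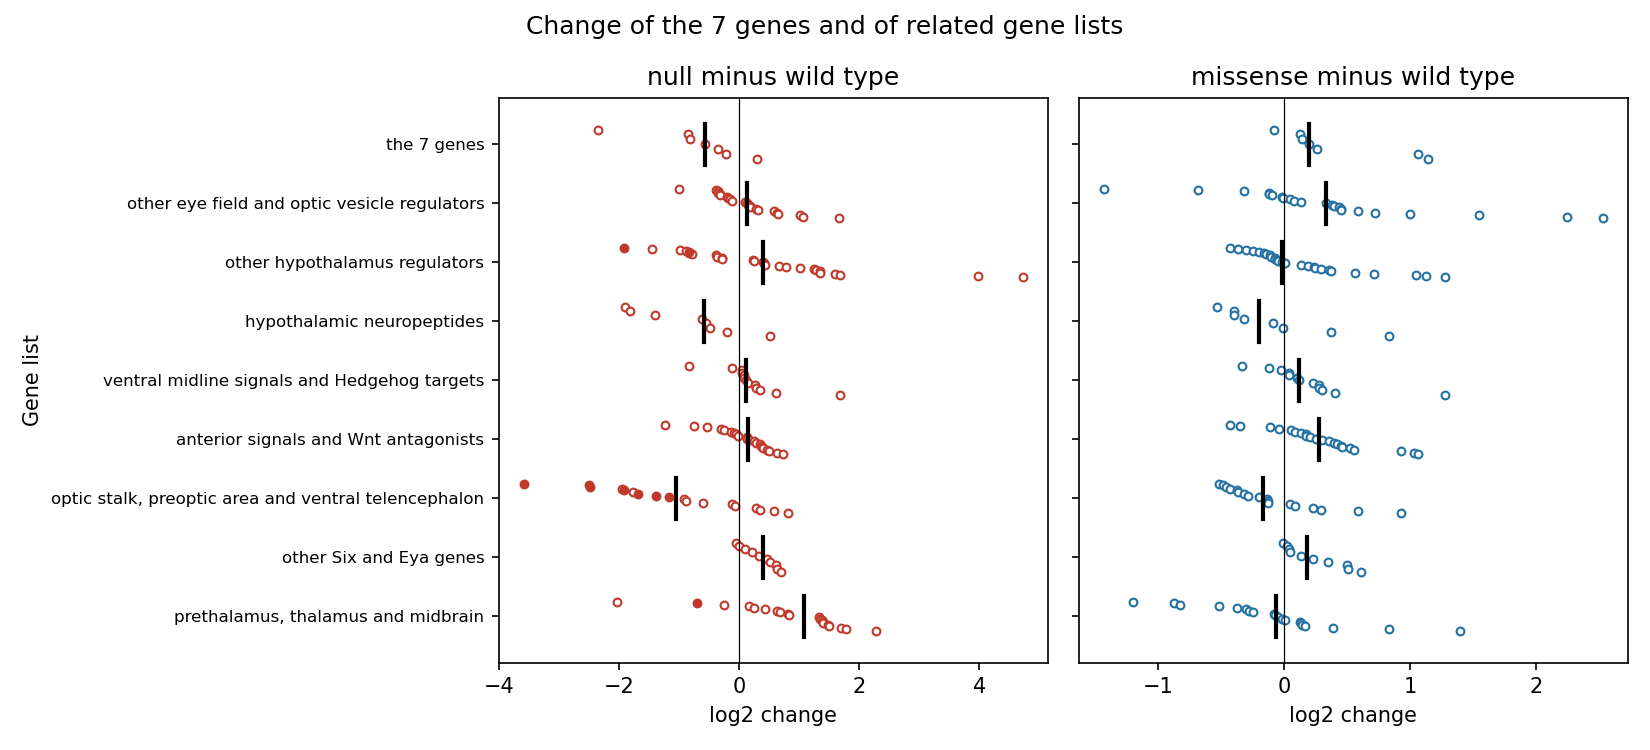
Log2 change (horizontal axes, on different scales) of every measured gene (points) of the 7 genes and of the related lists (vertical axis), in null (left) and missense (right), with a bar at each median and filled points for an adjusted p under 0.05 in limma. The median of the optic stalk, preoptic and ventral list lies at -1.04 in null and -0.17 in missense.

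The genes whose levels ran most like each of the 7 over the 10 samples were found by Pearson's r, as a description, since the samples share groups and title numbers. For Vax1 they were Jun (r = 0.90), Lcorl (0.88) and Slc18a2 (0.87), and for Six3 they were Isl1 (0.88), Map3k12 (0.88) and Zfp777 (0.87). Rax ran with Ccdc51 (0.92), Dlk1 (0.92) and Tm2d1 (0.89), and Six6 with Ppp1r10 (0.93), Rcan3 (0.92) and Fam101b (0.90). For Vax2 the nearest was Lrp12 (0.90), for Otp Fam220a (0.92) and for Sim1 Slc2a13 (0.89). After the group means were taken off, which leaves 6 degrees of freedom in 10 deviations, the nearest genes were others, Cemip for Vax1 (0.99), Phgdh for Six3 (0.96), Anxa5 for Rax (0.99) and Rad51d for Six6 (0.98). Each of these r is among the highest of 10676 or 10677 genes ranked, so a high value alone does not show a shared regulation.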

How the data were processed

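The 10 samples are total RNA from telencephalon of mouse embryos at day 12. The deposited values are log2 levels per gene; per the submitters' processing notes the genome build was GRCm39, while aligner, counter, annotation and normalization: not given in the sources used here. Back-transformed, the deposited log2 values of each sample add up to 1000450 to 1000890 with a floor of -3.16, so they were read as CPM with a small offset. Of 14797 genes 1 has no name and was left out.

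One linear model with 4 groups (genotype by title number) covered the log2 levels of all 14796 named genes (limma 3.58.1, R 4.3.3), using a trended prior, Benjamini-Hochberg adjustment over all genes and a threshold of 0.05. Changes are on the log2 scale with the offset of the deposited values, which understates those of low genes. The scripts were tested on simulated data. Intervals are 95% intervals. Single genes also had an exact 2-sided permutation test.

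The 7 members and the gene lists were chosen with earlier results of these data known. Genes named are the 7 members, up to 4 of each list with the smallest p in null and 2 in missense, the nearest genes by r, with genes whose mean fell under the 25th percentile left out, and Polr1a. Promoters matched for 5 of the 7 members, and the sequence of Rax and the values of some listed genes are not reported here. Alternatives were other scalings and filters, models without the title number or the trend, and leaving out each sample.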

Additional observations from a re-analysis of the deposited data

How the results depend on the processing

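The 7 genes gave 499 values under the alternatives, of which 486 kept direction and side of the threshold, 12 reversed and 1 newly passed, and 20 of 28 results never reversed. The newly passing value was Vax1 in null without missense 3 (limma adjusted p = 0.0105). Vax1 in null ranged from -2.54 to -1.78 over all alternatives. Without the title-number term, the missense change of Vax2 became -0.075. With 1 sample left out, the log2 change ranged from -0.92 to 0.49 for Six6, -0.84 to 0.14 for Otp and -0.20 to 0.79 for Sim1 in null, from -0.56 to 0.20 for Vax1 and -0.00396 to 0.24 for Vax2 in missense, from -0.64 to 0.34 for Sim1 in the difference of effects, and from -0.25 to 1.15 for Six6 and -0.023 to 0.15 for Sim1 between the wild types; the cause was not tested.

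Over all genes, limma called 24 in null, against 59 without the title-number term, 6 without the trend and 0 with the null samples and wild types 1 and 2 alone. It called 2 for the difference of effects, against 9 without the title-number term, 1 after median centring and 0 without the trend, and 14 between the wild types, against 8 with the filter at the 25th percentile, which leaves out Rax, Six6 and Vax2. With 1 sample left out the calls ranged from 2 to 23 in null, 2 to 10 in missense, 1 to 10 for the difference and 7 to 21 between the wild types, and those among the 7 genes in null from 0 to 1. Median centring moved the share of calls that were higher from 66.7% to 50% in missense, of 3 calls, and from 50% to 0% for the difference of effects, of 2 calls, where the call of Dlx1 was lost. Quantile normalization also gave 50% in missense. The counts of groups that do not overlap without null 1, null 2 or missense 3 were chosen after seeing the data. No paired analysis was possible because mutants and their wild types share no number in the titles, and the wild types of the 2 title numbers share only the number 1. The depth is unknown, so its part in the spread of Rax, Six6 and Vax2, the lowest of the 7 genes, was not tested.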
